A study of Mus musculus with 12 samples.

Results

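The mitochondrial genome carries 37 genes, and all 37 were listed among the 54532 genes of the deposited muscle expression table. They were taken by chromosome, as every row placed on chromosome MT, so no measured value entered the choice. They are 13 protein-coding genes, 2 ribosomal RNA genes and 22 transfer RNA genes, with 28 on the plus strand and 9 on the minus strand of the table. All mice were female ICR SCID animals, which are immunodeficient, and the muscle sampled was the gastrocnemius of the calf. TL mice bore HT1080 tumours, grown under the skin from a human fibrosarcoma line, and were given the RET kinase inhibitor selpercatinib by gavage at 30 mg/kg per day for 19 days. TV mice bore the same tumours and were given vehicle, while NTV mice were free of tumour and were also given vehicle. Each group had 4 biological replicates, and each library is named here by its group and replicate number. Every mouse in the 3 groups shared the SCID background, 1 tumour line was used, and the labels used here give no age. Depth was 14939830 to 23580603 reads assigned to genes per library.

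The mitochondrial genome is a small circular DNA present in many copies per cell. Both of its strands are transcribed from start to end into long precursors, from which the transfer RNAs are cut out, freeing the messenger and ribosomal RNAs between them. The messenger RNAs encode core subunits of respiratory complexes I, III, IV and V, and skeletal muscle is rich in them because contraction draws on oxidative phosphorylation. The plus strand of the annotation holds most genes, and mt-Nd6 and 8 transfer RNA genes lie on the other strand, usually called the light strand. Most mitochondrial messenger RNAs carry a short poly(A) tail, which for some of them completes the stop codon. The libraries were made from RNA purified on poly-T beads. Levels given here are those of RNA that this selection kept. How much of the ribosomal and transfer RNAs it kept was not measured. The sources used here do not say whether reads were counted by strand. Reads of a gene and of an RNA from the opposite strand therefore cannot be told apart. The same holds for reads in the short overlaps of neighbouring genes. Such overlaps include mt-Atp8 with mt-Atp6, mt-Nd4l with mt-Nd4, mt-Nd5 with mt-Nd6 and mt-Nd1 with mt-Ti. Reads on transfer RNA genes were also not told apart from those of uncut precursors or of neighbouring RNAs.

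The annotated 3′ ends of 4 messenger RNA genes are shown because, for some messenger RNAs, the poly(A) tail completes the stop codon. They are the last 30 bases of each gene in GENCODE M21 (GRCm38), with the unfinished or complete stop codon in capitals. After whole codons were counted off, mt-Co3, mt-Nd4 and mt-Cytb each had 1 base left, a lone T. The light-strand gene mt-Nd6 ended in a complete stop codon. Where its RNA ends was not measured, so the bases shown need not be those next to a poly(A) tail.
mt-Co3: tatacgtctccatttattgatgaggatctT
mt-Nd4: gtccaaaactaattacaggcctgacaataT
mt-Cytb: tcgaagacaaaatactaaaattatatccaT
mt-Nd6: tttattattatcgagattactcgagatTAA

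Part of the mitochondrial genome has a near-identical copy in the nucleus, and that copy limits what can be said of the genes it covers. By alignment of GENCODE M21 transcripts, 7 annotated pseudogenes on the minus strand of chromosome 1, from 24611535 to 24616197 (GRCm38), matched pieces of MT 6390 to 11042. The pieces cover 4136 of the 4653 bases spanned, and the sequence between the pseudogenes was not aligned. Of the 37 genes, 11 lay wholly inside the span, namely 6 messenger RNA genes (mt-Co2, mt-Atp8, mt-Atp6, mt-Co3, mt-Nd3 and mt-Nd4l) and 5 transfer RNA genes. Of mt-Atp8 43 bases were aligned, of mt-Ts1 3 and of the other transfer RNA genes 0. A further 2 genes, mt-Co1 and mt-Nd4, lay partly inside, and 24 lay outside. The copies of mt-Co2, mt-Atp6, mt-Co3, mt-Nd4l and mt-Nd4 had 0 mismatches over 681, 678, 783, 294 and 876 aligned bases. Over 483 and 345 aligned bases, the copies of mt-Co1 and mt-Nd3 each differed at 1 base. These are A1066T in mt-Co1 and T3C in mt-Nd3, counted from 1 at the 5′ end of the mitochondrial gene. The alignment of Gm29216, the copy of mt-Co1, began at its base 10, and the bases before that were not aligned. The windows below are shown because, within the aligned bases, they hold the single base by which a read could be placed. That base is in capitals.
mt-Co1: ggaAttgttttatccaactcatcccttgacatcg
Gm29216: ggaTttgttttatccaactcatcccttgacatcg
mt-Nd3: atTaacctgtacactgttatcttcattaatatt
Gm28438: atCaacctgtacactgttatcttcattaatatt

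The level of the messenger RNAs followed this boundary. The 5 messenger RNA genes outside the spanned stretch averaged 4748 to 13210 FPKM over the 12 libraries, where FPKM is fragments scaled to gene length and to library depth. The 2 genes partly inside averaged 6175 FPKM for mt-Nd4 and 24057 FPKM for mt-Co1. The 6 genes wholly inside averaged 4.21 to 563 FPKM. Libraries of the same group differed more for 5 of the 6 genes inside, mt-Atp6 being the exception. The SD of log2 FPKM within groups was 0.32 for mt-Atp6 and 0.57 to 1.62 for the other genes inside, against 0.29 to 0.43 for the 5 genes outside. mt-Nd4l, a complex I subunit, had 225, 25.1, 320 and 27.4 FPKM in TL 1, 4, 5 and 7, 27.1, 24.3, 285 and 126 FPKM in TV 3, 4, 6 and 8, and 60.3, 244, 66.4 and 43.1 FPKM in NTV 2, 3, 5 and 6. Each group thus held high and low libraries of mt-Nd4l side by side. Of the reads listed on mt-Nd3 or its copy Gm28438, 81.0% to 94.3% stood on the copy. For mt-Co2 the share on the copy was 13.8% to 65.7%, for mt-Atp6 10.1% to 70.5%, for mt-Co3 15.5% to 45.4% and for mt-Nd4l 11.97% to 63.4%. For mt-Co1 it was 0.0807% to 0.743% and for mt-Nd4 0.352% to 0.645%. How reads that align equally well to both places were counted is not given in the sources used here, and the part this plays in the levels was not tested.

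**Figure D1:**
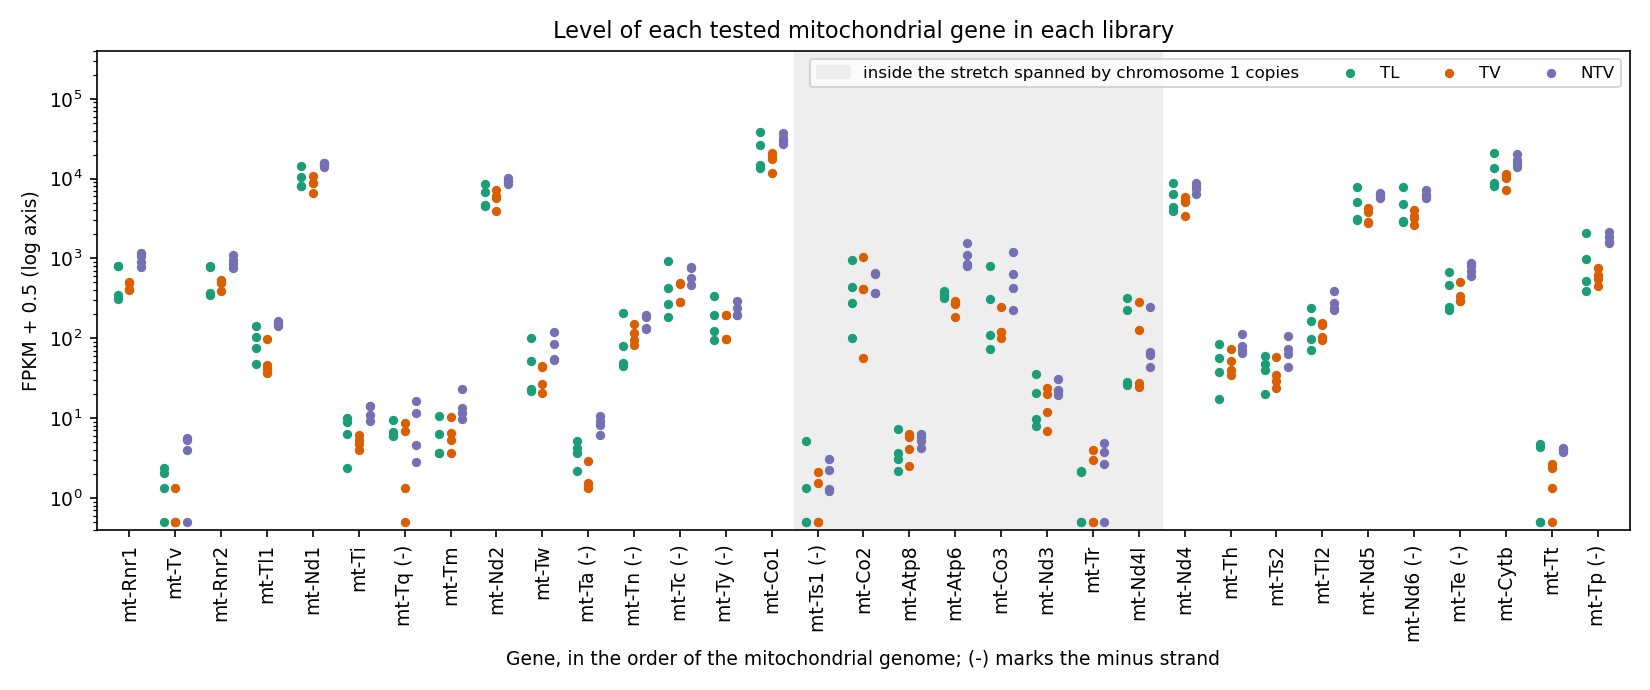
FPKM + 0.5 on a log axis of the 33 mitochondrial genes with a mean of at least 0.5 FPKM, in genome order, with 1 point per library and the groups side by side (TL, TV, NTV). The shaded genes lie inside the stretch spanned by the chromosome 1 copies; the messenger RNA genes there averaged at most 563 FPKM, against at least 4748 FPKM for those outside.

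In these poly-T-selected libraries, transfer RNA genes were lower than the messenger RNAs outside the spanned stretch and very uneven. mt-Tp, the proline transfer RNA, led with a mean of 1127 FPKM over all libraries, ahead of mt-Te (glutamate) at 504 FPKM and mt-Tc (cysteine) at 493 FPKM. All of these lie on the light strand, whose 8 transfer RNA genes held 76.6% to 88.2% of the transfer RNA reads in each library. mt-Ta (alanine), on the same strand, averaged only 4.202 FPKM. mt-Tf (phenylalanine) and mt-Td (aspartate) had 0 reads in all 12 libraries, which allows up to 3 reads in each. mt-Tg had 1 read in 1 library, and mt-Tk had 2 reads in 1 library. The sequences below show the range of levels, from the highest transfer RNAs to 2 without a read, with the anticodon of each in capitals (GENCODE M21, GRCm38, 5′ to 3′ of the gene).
mt-Tp: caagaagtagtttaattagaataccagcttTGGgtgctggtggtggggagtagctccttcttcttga
mt-Te: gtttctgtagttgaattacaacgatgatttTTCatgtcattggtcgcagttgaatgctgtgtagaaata
mt-Tc: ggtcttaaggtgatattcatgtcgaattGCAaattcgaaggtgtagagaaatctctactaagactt
mt-Ta: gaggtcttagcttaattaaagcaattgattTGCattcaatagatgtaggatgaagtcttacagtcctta
mt-Td: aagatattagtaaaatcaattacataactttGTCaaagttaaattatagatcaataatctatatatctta
mt-Tf: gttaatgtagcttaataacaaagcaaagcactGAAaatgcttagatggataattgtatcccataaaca

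Mitochondrial genes took a large part of each library, and a smaller one in TV than in NTV. They held 10.1%, 6.04%, 13.9% and 6.55% of all reads in TL 1, 4, 5 and 7. In TV 3, 4, 6 and 8 they held 5.08%, 7.70%, 6.60% and 6.72%, and in NTV 2, 3, 5 and 6 they held 11.6%, 12.2%, 12.5% and 13.5%. All TV libraries lay below all NTV libraries, while TL 1 and TL 5 lay above every TV library and TL 4 and TL 7 lay within the TV range. The mean was 9.17% ± 3.67 in TL, 6.53% ± 1.08 in TV and 12.4% ± 0.801 in NTV (SD, n = 4 each). The difference of TL minus TV was 2.64 percentage points, and 1.04 without TL 5. No p was computed for this sum over genes. In bulk muscle, fewer cells of a type and less RNA per cell cannot be told apart.

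**Figure D2:**
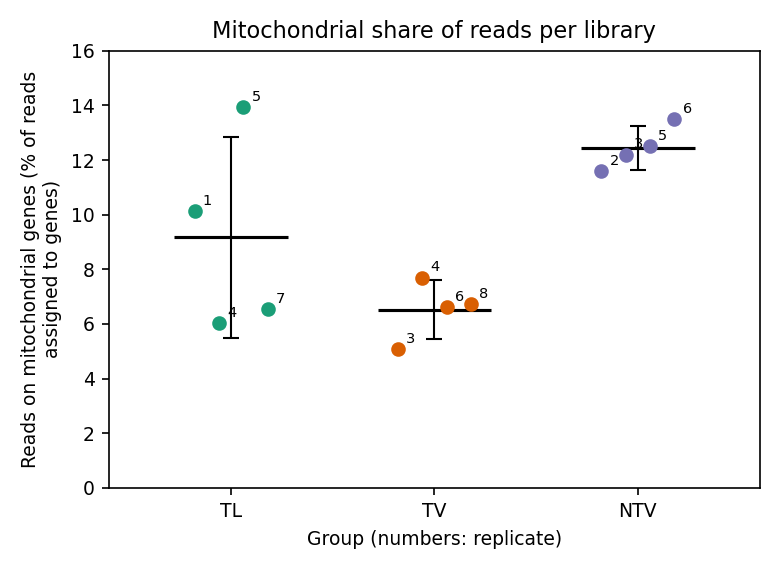
Share of each library's gene-assigned reads that stood on the 37 mitochondrial genes, in percent, with 1 numbered point per replicate; lines and bars give the mean and SD of each group (n = 4). TV libraries lie between 5.08% and 7.70%, NTV libraries between 11.6% and 13.5%, and TL libraries from 6.04% to 13.9%.

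Over the 12 libraries, the shares of mt-Co1 and mt-Cytb in these reads varied much less than the amount of these reads. mt-Co1, the catalytic subunit of complex IV, held 40.03% ± 2.57 of mitochondrial reads in TL, 38.3% ± 1.28 in TV and 39.96% ± 1.0098 in NTV. mt-Cytb, of complex III, held 16.5% ± 0.322 in TL, 16.5% ± 0.458 in TV and 15.8% ± 0.819 in NTV. The 2 ribosomal RNAs together held 1.63% ± 0.296 in TL, 1.77% ± 0.257 in TV and 1.99% ± 0.438 in NTV, and the groups overlapped. Transfer RNAs held 0.150% to 0.235% in TL, 0.163% to 0.199% in TV and 0.213% to 0.254% in NTV, so TV and NTV did not overlap. mt-Nd4, of complex I, held 8.63% to 10.2% in TL, 9.57% to 10.1% in TV and 8.23% to 8.94% in NTV, and here the TV libraries lay above the NTV libraries. Light-strand genes held 2.80% ± 0.215 in TL, 2.68% ± 0.206 in TV and 2.90% ± 0.0640 in NTV. Per length, mt-Nd6 on the light strand had 94.1 to 99.9 FPKM per 100 FPKM of its plus-strand neighbour mt-Nd5 in TL, 88.5 to 111 in TV and 97.2 to 108 in NTV. Whether reads on light-strand genes came from light-strand RNA cannot be told, because the strand of counting is not given. mt-Rnr2, the large ribosomal RNA, had 4.38 to 7.50 FPKM per 100 FPKM of mt-Nd1 in TL, 4.55 to 6.13 in TV and 4.75 to 7.06 in NTV. These shares are parts of 1 whole in each library, and no test was run on them.

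**Figure D3:**
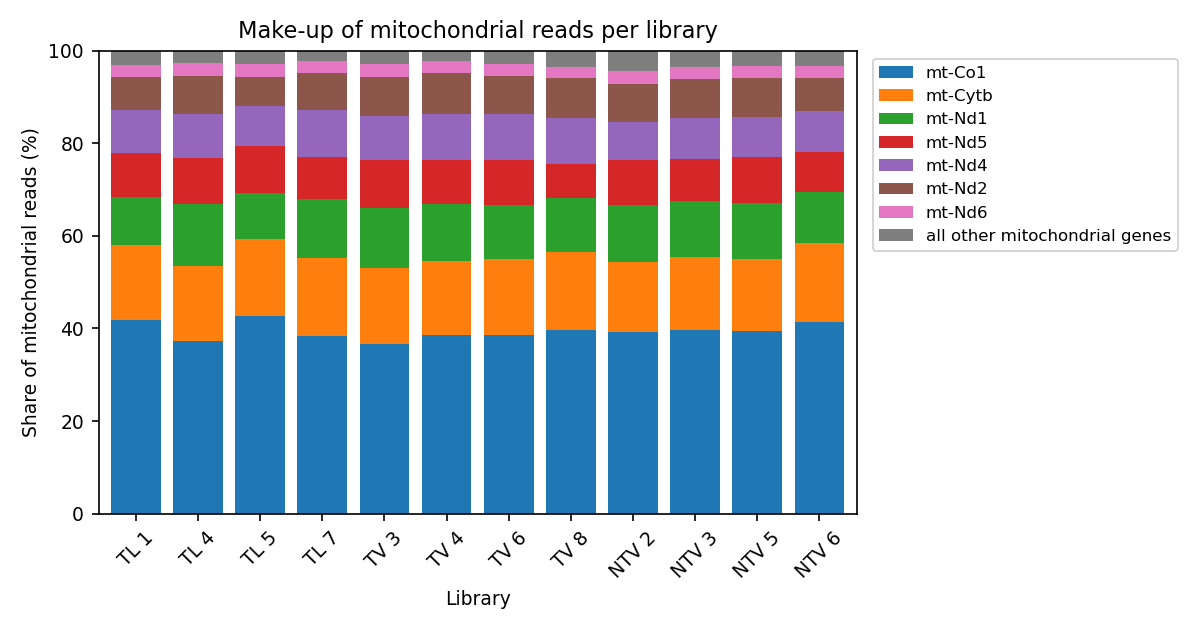
Share of mitochondrial reads (%) held by the 7 messenger RNA genes outside or partly inside the spanned stretch and by all other mitochondrial genes, with 1 bar per library, TL then TV then NTV. mt-Co1 takes between 36.6% and 42.6% in every library.

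After poly-T selection, levels on mitochondrial messenger, ribosomal and transfer RNA genes were lower in muscle of vehicle-treated tumour-bearing mice than in muscle of tumour-free mice. Of the 33 genes with a mean of at least 0.5 FPKM, 14 fell, whereas 0 rose (limma on log2(FPKM + 0.5), adjusted p under 0.05 over 12754 genes). The log2 change was below 0 for all 33 and its median was -0.94. Over all tested genes the median was 0.015, 25.2% were called, 11.5% were called lower and 13.8% higher. The 14 genes were 5 of the 13 messenger RNAs, both ribosomal RNAs and 7 of the 18 tested transfer RNAs. All TV values lay below all NTV values for 18 of the 33 genes, against 12.7% of all genes tested. The count of 14 rested on the full set of libraries. It was 4 without TV 3, 7 without TV 6, 9 without TV 8, 5 without NTV 2, 5 without NTV 3 and 6 without NTV 6, with 0 rising in each. More genes were called in the fits without TV 4 and without NTV 5. Shares of all genes called in these reduced fits are not given here.

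Among the 7 messenger RNAs outside or partly inside the spanned stretch, 4 fell, and all 7 had TV libraries wholly below NTV libraries. All 4 encode subunits of complex I, the entry point of the respiratory chain. mt-Nd1 (MT 2751 to 3707) had 6568, 10789, 8758 and 8726 FPKM in TV 3, 4, 6 and 8, and 13974, 15757, 14635 and 15861 FPKM in NTV 2, 3, 5 and 6. Its log2 change was -0.81 ± 0.24 (SE; limma adjusted p = 0.0287). mt-Nd6 (MT 13552 to 14070, minus strand) had 2629, 4050, 3356 and 3230 FPKM in the TV libraries in the same order, and 5743, 6228, 6154 and 7175 FPKM in the NTV libraries. Its highest TV library was thus well below its lowest NTV library, with a log2 change of -0.94 ± 0.29 (limma adjusted p = 0.0362). mt-Nd5 changed by -0.87 ± 0.29 (limma adjusted p = 0.0444) and mt-Nd2 by -0.75 ± 0.25 (limma adjusted p = 0.0456). The call of mt-Nd5 was lost when any 1 of the 8 libraries was left out, that of mt-Nd2 and of mt-Nd6 when any of 7 was, and that of mt-Nd1 when any of 5 was.

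The other 3 were not called, with changes of similar size. mt-Co1 (MT 5328 to 6872) had 11621, 20763, 17771 and 18551 FPKM in TV 3, 4, 6 and 8, and 27393, 32043, 29780 and 37023 FPKM in NTV 2, 3, 5 and 6. The groups did not overlap, and the log2 change was -0.90 ± 0.34 (limma adjusted p = 0.0716). mt-Cytb averaged 9898 ± 1934 FPKM in TV and 16898 ± 2657 FPKM in NTV (SD, n = 4 each), a log2 change of -0.78 ± 0.31 (limma adjusted p = 0.0790). mt-Nd4 averaged 4920 ± 1059 FPKM in TV and 7678 ± 1043 FPKM in NTV, a log2 change of -0.66 ± 0.27 (limma adjusted p = 0.0929). With reads scaled to an equal total per library, all 3 passed the threshold. Over 16 alternatives mt-Co1 was called in 6, mt-Cytb in 4 and mt-Nd4 in 3. Each was called in 0 of the 8 fits that left out 1 library.

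Inside the spanned stretch, 1 of the 6 messenger RNAs fell. mt-Atp6 (MT 7927 to 8607), a membrane subunit of ATP synthase, had 270, 289, 185 and 279 FPKM in TV 3, 4, 6 and 8, and 1580, 848, 795 and 1105 FPKM in NTV 2, 3, 5 and 6. Every TV library was below every NTV library, and the log2 change was -2.05 ± 0.21 (limma adjusted p = 0.000541). The listed level of its perfect copy Gm10925 was 165 ± 137 FPKM in TV and 242 ± 60.8 FPKM in NTV, and the groups overlapped. With the reads of mt-Atp6 and Gm10925 added together the log2 change was -1.69, and it still passed. mt-Co3, of complex IV, averaged 147 ± 67.1 FPKM in TV and 626 ± 424 FPKM in NTV. Its log2 change of -1.92 ± 0.69 did not pass (limma adjusted p = 0.0611), and the groups overlapped. mt-Co2 averaged 479 ± 406 FPKM in TV and 510 ± 162 FPKM in NTV, and mt-Atp8 4.18 ± 1.75 FPKM in TV and 4.86 ± 0.888 FPKM in NTV. mt-Nd3 averaged 15.2 ± 7.70 FPKM in TV and 23.2 ± 4.94 FPKM in NTV, and mt-Nd4l 116 ± 123 FPKM in TV and 104 ± 94.4 FPKM in NTV. None of these 4 passed the test or separated the groups, and for mt-Nd4l the mean FPKM was higher in TV while the mean of the log2 values was lower.

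Both ribosomal RNAs fell in these poly-T-selected libraries. mt-Rnr1 (MT 70 to 1024), of the small ribosomal subunit, had 398, 419, 513 and 494 FPKM in TV 3, 4, 6 and 8, and 1076, 1161, 889 and 779 FPKM in NTV 2, 3, 5 and 6. The groups did not overlap, and the log2 change was -1.09 ± 0.30 (limma adjusted p = 0.0217). mt-Rnr2 (MT 1094 to 2675) averaged 479 ± 65.4 FPKM in TV and 920 ± 152 FPKM in NTV, a log2 change of -0.94 ± 0.27 (limma adjusted p = 0.0282). The call of mt-Rnr1 was lost in 4 of the 8 fits that left out 1 library of these groups, and that of mt-Rnr2 in 5.

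The 7 transfer RNA genes that fell are annotated on both strands, 3 of the 8 light-strand genes and 4 of the 10 tested plus-strand genes. mt-Tp (MT 15356 to 15422, minus strand) had 456, 611, 768 and 552 FPKM in TV 3, 4, 6 and 8, and 1594, 1831, 1548 and 2163 FPKM in NTV 2, 3, 5 and 6. The lowest NTV library was above the highest TV library, with a log2 change of -1.59 ± 0.41 (limma adjusted p = 0.0170). mt-Tl1 (MT 2676 to 2750), a leucine transfer RNA, had 41.0, 97.0, 36.6 and 46.1 FPKM in the TV libraries, with TV 4 far above the others, and 142, 153, 154 and 163 FPKM in the NTV libraries. Its log2 change was -1.57 ± 0.33 (limma adjusted p = 0.00646). mt-Ta (MT 5018 to 5086, minus strand) had 2.38, 0.811, 0.866 and 1.04 FPKM in the TV libraries and 5.56, 7.78, 8.61 and 10.2 FPKM in the NTV libraries. Those values rest on 4, 1, 1 and 1 reads in TV and 7, 9, 12 and 12 reads in NTV, and the log2 change was -2.32 ± 0.30 (limma adjusted p = 0.00119). mt-Te changed by -1.09 ± 0.33, mt-Tl2 (leucine) by -1.17 ± 0.34, mt-Ti (isoleucine) by -1.26 ± 0.37 and mt-Tm (methionine) by -1.19 ± 0.40 (limma adjusted p = 0.0262 to 0.0467). mt-Ti had 4 to 8 reads in TV and 12 to 16 reads in NTV, and mt-Tm was the only gene of the 14 whose groups overlapped. mt-Tp, mt-Tl1, mt-Ta and mt-Atp6 stayed called whichever library of the 2 groups was left out.

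**Figure D4:**
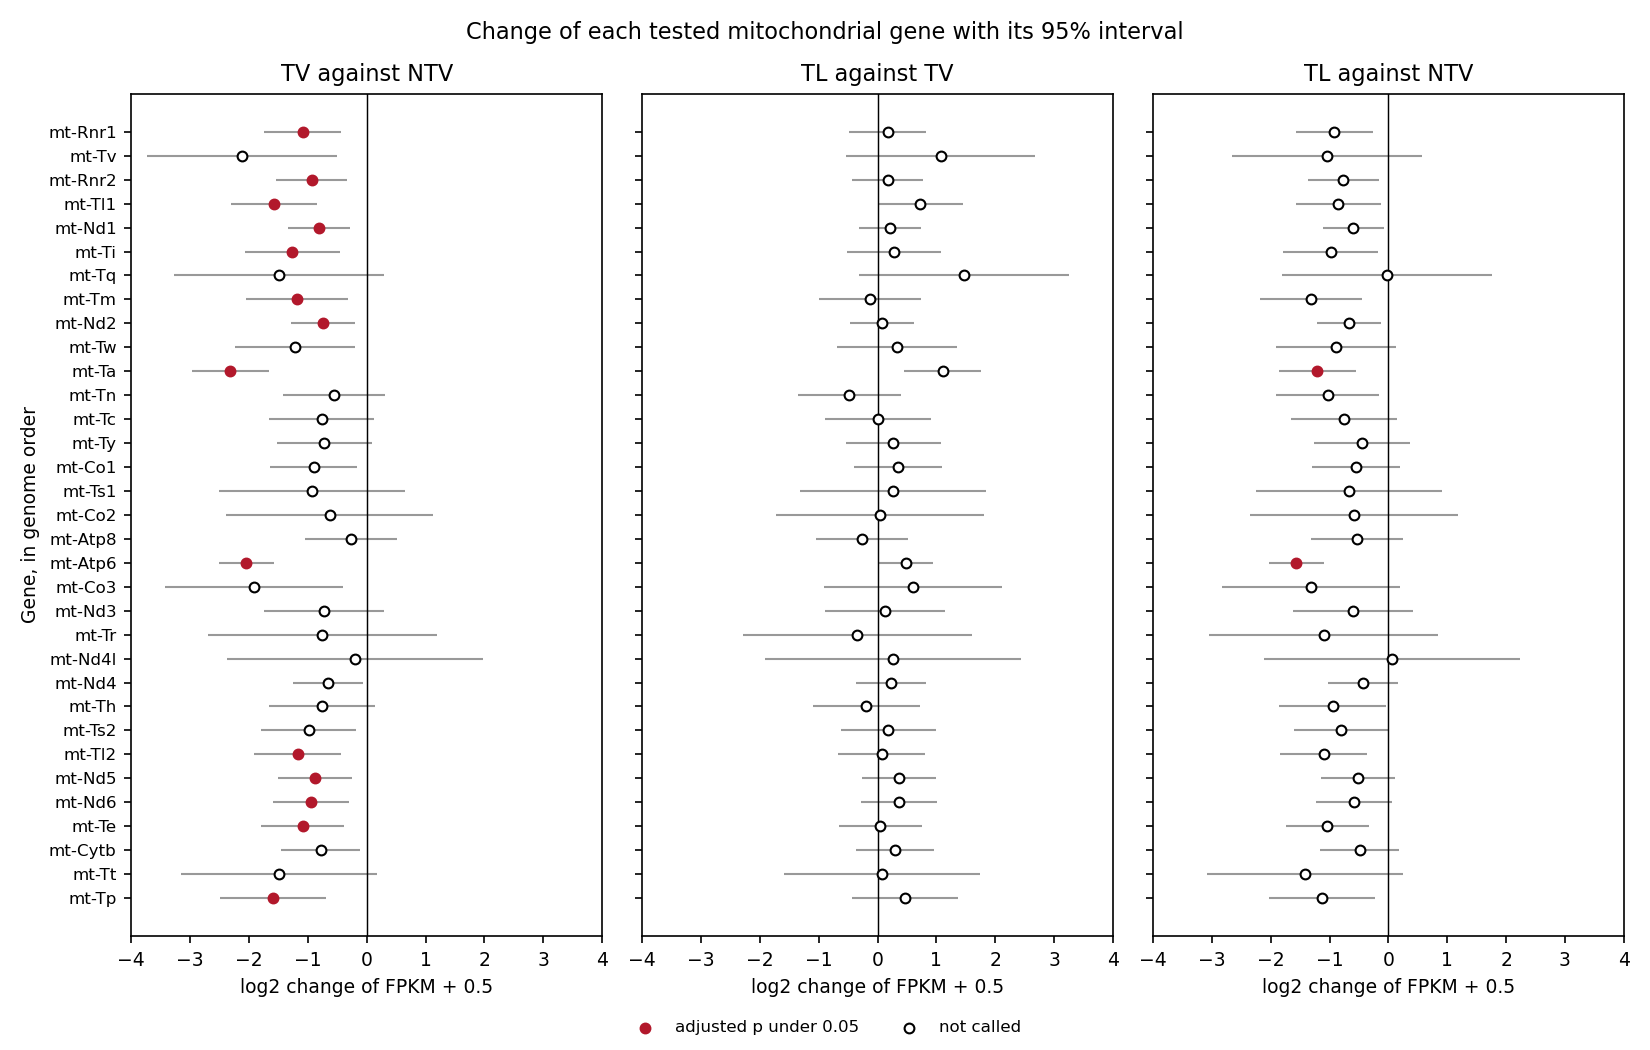
Log2 change of FPKM + 0.5 with its 95% interval for the 33 tested mitochondrial genes in genome order, with 1 panel for each pair of groups; filled points passed an adjusted p of 0.05. In TV against NTV all 33 points lie below 0 and 14 are filled, in TL against TV 0 are filled, and in TL against NTV 2 are filled.

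Selpercatinib-treated tumour-bearing mice did not differ from vehicle-treated ones by the test, and TL libraries were spread widely. In TL against TV, 0 of 33 genes were called by limma and 0 by limma-voom on recovered reads, and 3 (9.09%) had an unadjusted p under 0.05 (mt-Atp6, mt-Tl1 and mt-Ta), against 16.1% of all genes. Of all genes tested, 0.517% were called, 0.235% higher and 0.282% lower. The median log2 change of the 33 genes was 0.22, and -0.0031 over all genes. mt-Nd1 had 10501, 8017, 14497 and 7994 FPKM in TL 1, 4, 5 and 7, against 6568 to 10789 FPKM in TV. TL 5 stood above all TV libraries and TL 4 and TL 7 within them, and the log2 change was 0.21, with a 95% interval of -0.31 to 0.73. mt-Co1 had 26115, 13758, 38872 and 14989 FPKM in TL 1, 4, 5 and 7, against 11621 to 20763 FPKM in TV. Its log2 change was 0.35 (95% interval -0.40 to 1.09), with TL 1 and TL 5 above all TV libraries. The other messenger RNAs outside or partly inside the stretch changed by 0.07 (mt-Nd2) to 0.37 (mt-Nd5), with interval bounds from -0.47 to 1.003. mt-Rnr1 and mt-Rnr2 each changed by 0.17, with intervals of -0.48 to 0.83 and -0.43 to 0.77.

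mt-Atp6 was the only mitochondrial gene whose TL and TV libraries did not overlap, against 3.36% of all genes that were higher in TL without overlap and 4.05% that were lower. It had 357, 389, 340 and 323 FPKM in TL 1, 4, 5 and 7, against 270, 289, 185 and 279 FPKM in TV 3, 4, 6 and 8. The log2 change was 0.48 ± 0.21 and did not pass (limma adjusted p = 0.297). With Gm10925 added the level was 465 to 1152 FPKM in TL and 283 to 645 FPKM in TV, and the groups overlapped. mt-Ta had 3.14, 1.66, 4.61 and 3.75 FPKM in the TL libraries, from 2 to 6 reads, against 0.811 to 2.38 FPKM in TV. Its log2 change of 1.11 ± 0.30 (limma adjusted p = 0.125) passed only without TL 4 (adjusted p = 0.0384) or with library weights (adjusted p = 0.0494). mt-Tl1 had 103, 74.2, 140 and 47.7 FPKM in the TL libraries, against 36.6 to 97.0 FPKM in TV, with a log2 change of 0.73 ± 0.33 (limma adjusted p = 0.309).

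Selpercatinib-treated tumour-bearing mice had lower mean levels on most mitochondrial genes than tumour-free vehicle mice, but few genes passed the test. In TL against NTV, 2 of 33 genes fell and 0 rose, while 8.81% of all genes were called, 4.62% lower and 4.19% higher. The 2 genes were mt-Atp6 and mt-Ta. The log2 change was negative for 32 of 33 genes, with a median of -0.80, against 0.022 over all genes. mt-Atp6 averaged 352 ± 28.2 FPKM in TL and 1082 ± 359 FPKM in NTV (SD, n = 4 each), a log2 change of -1.57 ± 0.21 (limma adjusted p = 0.00299), and no library overlapped. With the reads of Gm10925 added, its change was -1.11 and the call was lost (adjusted p = 0.0554). mt-Ta averaged 3.29 ± 1.24 FPKM in TL and 8.04 ± 1.94 FPKM in NTV, a log2 change of -1.21 ± 0.30 (limma adjusted p = 0.0303). Leaving out TL 1, TL 4, TL 7, NTV 3, NTV 5 or NTV 6 ended the call of mt-Ta, and so did limma-voom on recovered reads (adjusted p = 0.0704), testing with no filter on low values, the replicate block and leaving out the libraries with Ucp1 above 2 FPKM. mt-Nd2 and mt-Tl1 also had TL wholly below NTV but were not called, with log2 changes of -0.68 ± 0.25 and -0.85 ± 0.33 (limma adjusted p = 0.104 and 0.124). That made 4 of 33 genes without overlap, against 10.1% of all genes tested. mt-Nd1 changed by -0.60 ± 0.24 (limma adjusted p = 0.130), mt-Co1 by -0.55 ± 0.34 (limma adjusted p = 0.321) and mt-Rnr1 by -0.92 ± 0.30 (limma adjusted p = 0.0771). TV and TL are each compared with the same NTV libraries, so their changes against NTV are not independent. Without TL 5, 13 genes fell in TL against NTV. Without TL 4, TL 7, NTV 3, NTV 5 or NTV 6, 1 gene fell. For these reduced fits the share of all genes called is not given here.

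The 4 TL libraries took different places between the other groups across the mitochondrial genes. TL 5 was at or above the lowest NTV library for 28 of the 33 tested genes, TL 1 for 12, TL 4 for 6 and TL 7 for 3. TL 7 was at or below the highest TV library for 31 genes, TL 4 for 29, TL 1 for 15 and TL 5 for 3. The median log2 difference from the NTV mean over the 33 genes was -0.51 in TL 1, -1.12 in TL 4, 0.10 in TL 5 and -1.67 in TL 7. TL 1 reached the NTV range for both ribosomal RNAs but for only 1 of the 7 messenger RNAs outside or partly inside the spanned stretch. mt-Rnr1 had 794, 311, 800 and 345 FPKM in TL 1, 4, 5 and 7, against a range of 779 to 1161 FPKM in NTV. mt-Cytb had 13693, 8103, 20718 and 8820 FPKM in TL 1, 4, 5 and 7, against 14159 to 20460 FPKM in NTV.

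**Figure D5:**
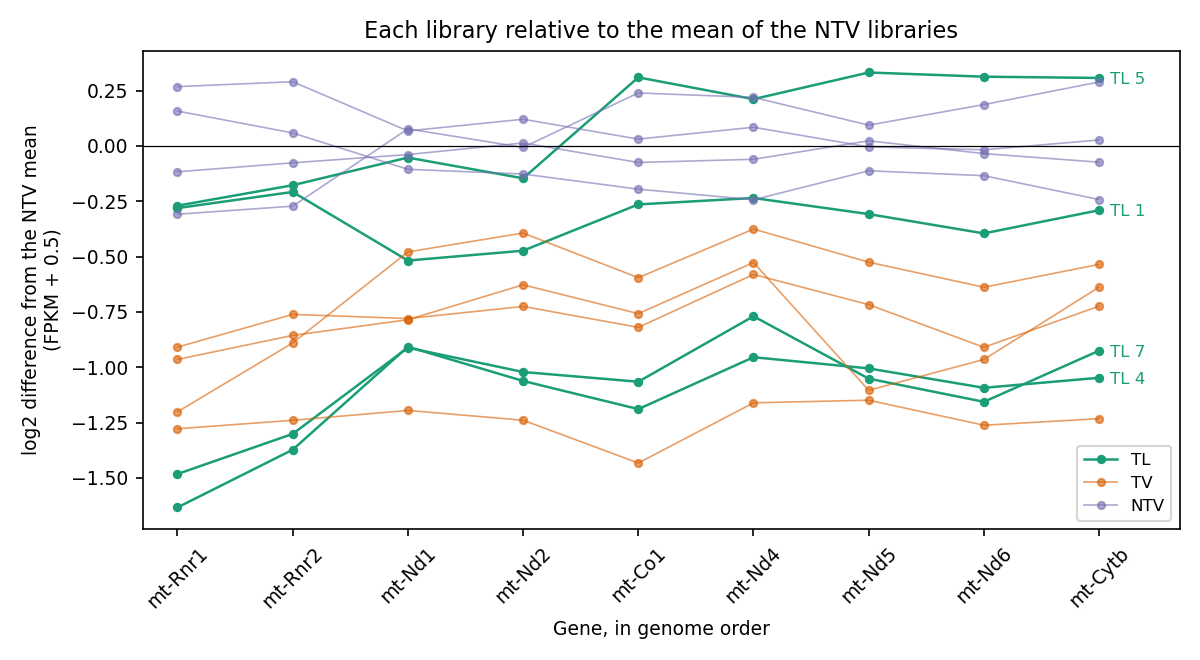
Log2 difference of FPKM + 0.5 from the mean of the NTV libraries, for the ribosomal RNAs and the 7 messenger RNAs outside or partly inside the spanned stretch, with 1 line per library. TL 5 and TL 1 lie nearest the NTV libraries, TL 4 and TL 7 lie among the TV libraries or below them.

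Adipocyte markers were also high in TL 1 and TL 5, and Mb (myoglobin) was higher there than in TL 4 and TL 7. Muscle markers were present in every library, with Ckm, Acta1, Mb and Myh4 summing to 22525 to 28635 FPKM in TL, 23084 to 47505 FPKM in TV and 30167 to 36759.5 FPKM in NTV. All 5 brown adipocyte markers were detected, with sums of 119, 6.65, 27.0 and 0.546 FPKM in TL 1, 4, 5 and 7, 0.750 to 5.10 FPKM in TV, and 1.27, 2.41, 81.3 and 1.006 FPKM in NTV 2, 3, 5 and 6. Ucp1, their defining member, had 58.3, 0.210, 3.97 and 0 FPKM in TL 1, 4, 5 and 7, 0 to 0.477 FPKM in TV, and 0.201, 1.06, 53.4 and 0.0359 FPKM in NTV 2, 3, 5 and 6. The 6 general adipocyte markers summed to 285, 85.2, 346 and 54.1 FPKM in TL 1, 4, 5 and 7, 62.2 to 180 FPKM in TV and 49.4 to 109 FPKM in NTV. The oxygen store Mb had 1408, 319, 1556 and 805 FPKM in TL 1, 4, 5 and 7, 582 to 845 FPKM in TV and 1777 to 2437 FPKM in NTV. The 9 slow or oxidative fibre markers summed to 1154 to 2193 FPKM in TL, 360 to 2374 FPKM in TV and 1248 to 1891 FPKM in NTV, and their members differed. Myh2, the oxidative fast myosin, averaged 340 ± 182 FPKM in TL, 351 ± 137 FPKM in TV and 753 ± 240 FPKM in NTV, with TL and TV each wholly below NTV, and was not called in TV against NTV (limma adjusted p = 0.0562). The slow myosin Myh7 averaged 104 ± 68.3 FPKM in TV and 56.1 ± 29.8 FPKM in NTV, with overlap. The 6 fast fibre markers summed to 18252 to 22959 FPKM in TL, 20758 to 33779 FPKM in TV and 17184 to 22737 FPKM in NTV. Of these, Actn3 and Mylk2 rose in TV against NTV, by 1.29 ± 0.19 and 1.70 ± 0.17 on the log2 scale (limma adjusted p = 0.00159 and 0.000521). Mb fell by 1.62 ± 0.40 (limma adjusted p = 0.0134). The part of fibre type in the mitochondrial differences was not tested. NTV 5, with the brown adipocyte markers, held 12.5% mitochondrial reads, against 11.6%, 12.2% and 13.5% in NTV 2, 3 and 6. Without the 3 libraries whose Ucp1 was above 2 FPKM (TL 1, TL 5 and NTV 5), 20 genes fell in TV against NTV, 0 were called in TL against TV and 14 fell in TL against NTV, where 2 TL libraries remained. In TL against TV, 27 of 33 log2 changes were then negative, against 5 with all libraries. The share of all genes called in this fit is not given here, so its counts have no background beside them. TL 1 and TL 5 were also the TL libraries with the highest mitochondrial share, 10.1% and 13.9% of reads. Leaving them out therefore lowers the TL means whatever their Ucp1, and the part of adipocytes was not tested.

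Reads were listed on the 7 pseudogene copies on chromosome 1 in all libraries. In TV against NTV, 3 of the 7 were called lower, against 11.5% of all genes. Gm10222 and Gm28439 had 0 mismatches to the mitochondrial genes and Gm28438 had 1. Reads lying within the aligned bases could therefore come from either place, except any that cover that 1 base. Gm28438, the copy of mt-Nd3, averaged 127 ± 24.2 FPKM in TV and 237 ± 67.7 FPKM in NTV, a log2 change of -0.87 ± 0.25 (limma adjusted p = 0.0263). Gm10222, the copy of mt-Nd4l, averaged 35.8 ± 7.39 FPKM in TV and 65.2 ± 3.82 FPKM in NTV, a log2 change of -0.88 ± 0.29 (limma adjusted p = 0.0444). Gm28439, the copy of part of mt-Nd4, averaged 31.4 ± 8.43 FPKM in TV and 62.9 ± 19.3 FPKM in NTV, a log2 change of -0.99 ± 0.33 (limma adjusted p = 0.0433). None of the 7 copies was called in TL against TV or in TL against NTV. Summed with its copy, mt-Nd3 had 113, 167, 130 and 156 FPKM in TV 3, 4, 6 and 8, and 202, 264, 220 and 347 FPKM in NTV 2, 3, 5 and 6, and the summed gene passed in TV against NTV (adjusted p = 0.0266).

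Some nuclear genes that act on mitochondrial RNA and DNA also fell in TV. Of 63 listed factors, 61 were tested, and in TV against NTV 22 fell, 2 rose and the median log2 change was -0.24, while 11.5% of all genes were called lower and 13.8% higher. By role, 3 of 9 genes listed under transcription fell, namely Tfb1m, Tefm and Mterf2. So did 2 of 9 replication factors, 4 of 13 processing and modification enzymes, 4 of 14 polyadenylation and decay factors and 7 of 10 translation factors. Of 6 regulators of mitochondrial biogenesis, 2 fell and 2 rose. The largest falls were in Mterf2, a transcription regulator, at -1.43 ± 0.23 (limma adjusted p = 0.0021), Taco1, a translational activator of mt-Co1, at -1.35 ± 0.17 (limma adjusted p = 0.00107) and Mrm1, a ribosomal RNA methyltransferase, at -1.20 ± 0.22 (limma adjusted p = 0.00349). Taco1 averaged 16.3 ± 4.00 FPKM in TV and 41.4 ± 3.62 FPKM in NTV.

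Of the named core factors, Tefm and Lrpprc fell and the others did not pass. Polrmt, the mitochondrial RNA polymerase, averaged 7.63 ± 0.514 FPKM in TV and 6.88 ± 0.491 FPKM in NTV, a log2 change of 0.14 ± 0.08 that did not pass (limma adjusted p = 0.219). Tfam, which packages the DNA and starts transcription, averaged 9.77 ± 1.13 FPKM in TV and 12.03 ± 1.13 FPKM in NTV, and its change of -0.29 ± 0.10 did not pass (limma adjusted p = 0.0510). Tefm, the elongation factor, fell by 0.58 ± 0.10 on the log2 scale (limma adjusted p = 0.00229). Lrpprc, which stabilises mitochondrial messenger RNAs, averaged 11.1 ± 1.72 FPKM in TV and 16.2 ± 0.742 FPKM in NTV and fell by 0.53 ± 0.12 (limma adjusted p = 0.0104). Its partner Slirp was low, at 0.517 ± 0.142 FPKM in TV and 0.493 ± 0.119 FPKM in NTV. The log2 change was 0.03 for Slirp and for the initiation factor Tfb2m, -0.19 for the poly(A) polymerase Mtpap and 0.37 ± 0.30 for the coactivator Ppargc1a, and none of these passed. The 2 that rose were the regulators Nrf1, by 0.48 ± 0.11 (limma adjusted p = 0.0109), and Pprc1, by 0.42 ± 0.12 (limma adjusted p = 0.0265).

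In TL against TV, 0 of the 61 nuclear factors were called by limma and 0 by limma-voom, 10 (16.4%) had an unadjusted p under 0.05, against 16.1% of all genes, and the median log2 change was 0.09. In TL against NTV, 13 fell, 1 rose and the median was -0.15, while 4.62% of all genes were called lower and 4.19% higher. Of the 13, 6 were translation factors. The largest falls there were Mterf2 at -0.89 ± 0.23 (limma adjusted p = 0.0346), Taco1 at -0.85 ± 0.17 (limma adjusted p = 0.0134) and the coactivator Ppargc1b at -0.75 ± 0.19 (limma adjusted p = 0.0325). Lrpprc averaged 11.6 ± 1.69 FPKM in TL and 16.2 ± 0.742 FPKM in NTV and fell by 0.48 ± 0.12 (limma adjusted p = 0.0352), and Nrf1 rose by 0.40 ± 0.11 (limma adjusted p = 0.0474). Tefm and Tfam did not pass, at -0.29 ± 0.10 and -0.26 ± 0.10 (limma adjusted p = 0.0774 and 0.113).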

How the data were processed

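Gastrocnemius RNA from 12 mice was sequenced after poly-T bead selection. The table holds FPKM per gene, deposited by the authors, with gene length, position, strand and biotype; its positions are mm10, and the submitters' processing notes also name HISAT2 2.05, featureCounts 1.5.0-p3 and DESeq2, with no roles. How strand and multi-mapping reads were handled is not given in the sources used here. FPKM times deposited gene length came in whole steps, so read counts were recovered for 100% of values within 0.1 read of a whole number. Recovered reads gave the depths, the shares of reads and an alternative test.

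log2(FPKM + 0.5) of all 12 libraries was fitted with limma 3.58.1 (R 4.3.3, moderated with a mean-variance trend) over the 12754 genes with a mean of at least 0.5 FPKM; p-values were adjusted by Benjamini-Hochberg over all of them and called under 0.05. Fold changes on this scale understate those of low genes. limma-voom on recovered reads called 13 mitochondrial genes lower in TV against NTV, 0 in TL against TV and 3 lower in TL against NTV, mt-Ta not among these. On data simulated for TV against NTV over 12754 genes, the test recovered 76 of 100 genes changed by 1 on the log2 scale and 96 of 100 changed by 2, with 8 false calls. Pairs of libraries within a group differed far beyond counting error (chi-square per degree of freedom 17.9 to 123), so none was counted as a duplicate. Replicates are separate animals per the series design. Intervals of log2 changes are limma's, from the spread between animals, and the limits for 0 reads cover counting error only.

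Sequences and nuclear copies came from GENCODE M21 (GRCm38), whose positions matched the table for all 37 genes; copies were found with blastn 2.17.0 (at least 95% identity over at least 100 bases). Tables were handled in pandas 2.3.3 and numpy 2.4.6 under Python 3.11.15, and matplotlib 3.10.9 drew the figures. All mitochondrial genes and their nuclear copies were named whatever their values, and of 63 nuclear factors the 3 largest called changes each way plus 8 fixed genes. The genes and lists were chosen with earlier results of these data known. Alternatives covered the added constant, the filter, scaling, variance model, library weights, recovered reads, the replicate number as a block, each library left out, libraries with Ucp1 above 2 FPKM left out and, added after the data were seen, genes summed with their copies.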

Additional observations from a re-analysis of the deposited data

Results flagged for a closer look

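In 5 of 102 gene and group sets, 1 library stood far from the other 3 of its group, and chance gives about 1 in 20 such sets, here 5.1. mt-Tl1 had 97.0 FPKM in TV 4, against 36.6 to 46.1 FPKM in the other TV libraries. mt-Tv, the valine transfer RNA, had 0.811 FPKM in TV 4 and was listed at 0 in the other TV libraries. mt-Ta had 2.38 FPKM in TV 3, against 0.811 to 1.04 FPKM in the others. mt-Co3 had 247 FPKM in TV 8, against 101 to 121 FPKM in the others. mt-Nd4l had 244 FPKM in NTV 3, against 43.1 to 66.4 FPKM in the other NTV libraries.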

How the results depend on the processing

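In TV against NTV, all 33 log2 changes were negative in every alternative that kept all libraries except the replicate block, where 32 were, and 30 to 33 were with 1 library left out. Its count of 14 called genes was 4 with no filter on low values, 0 with the replicate block and 4 to 12 with 1 library left out. The count of 0 in TL against TV was 1 with library weights and 0 to 1 with 1 library left out. The count of 2 in TL against NTV was 1 with no filter, 0 with the replicate block, 1 with genes and their chromosome 1 copies summed, 14 without the libraries with Ucp1 above 2 FPKM and 1 to 13 with 1 library left out. The causes were not tested, and fits with fewer libraries changed both the number of libraries and which ones were in. Shares of all genes called are not given for these fits.

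Replicate numbers did not pair the animals: 2 numbers were shared between TV and NTV and 1 in each other comparison, correlations of same-numbered libraries were 0.014 to 0.13, and the replicate block left 2 residual degrees of freedom in place of 9. With that block mt-Nd2 changed by -0.0491 in TL against TV. The libraries with Ucp1 above 2 FPKM include TL 1 and TL 5, the TL libraries with the highest mitochondrial share. In TL against TV without those libraries, the changes were -0.23 for mt-Co1, -0.20 for mt-Cytb, -0.10 for mt-Nd1, -0.30 for mt-Nd2, -0.20 for mt-Nd4, -0.15 for mt-Nd5, -0.18 for mt-Nd6, -0.47 for mt-Rnr1 and -0.40 for mt-Rnr2. With 1 library left out they ranged over -0.11 to 0.20 for mt-Nd2, -0.044 to 0.41 for mt-Rnr1 and -0.024 to 0.37 for mt-Rnr2.

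With FPKM sums in place of reads, the mitochondrial share differed by -11.0 percentage points in TV minus NTV, 4.90 in TL minus TV and -6.12 in TL minus NTV; the transfer RNA share by -0.836, -0.121 and -0.956 in the same order; and the light-strand share by -1.06 in TV minus NTV and -0.813 in TL minus NTV. Scaling to an equal total of reads moved the median of all genes to -0.07, 0.11 and 0.05 in these comparisons, and to -0.15, 0.14 and 0.0029 without mitochondrial genes. Few reads limit mt-Ta, mt-Ti, mt-Tm and the transfer RNAs near 0.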

Other observations

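Other nuclear copies of mitochondrial genes were more diverged. Gm13340 on chromosome 2, 97.6% identical to mt-Co1, had 81 to 592 reads per library and averaged 10.3 ± 10.01 FPKM in TL, 6.44 ± 3.68 FPKM in TV and 11.3 ± 1.81 FPKM in NTV. Gm13339, 96.7% identical to part of mt-Nd2, averaged 0.804 ± 1.16 FPKM in TL, 2.55 ± 2.27 FPKM in TV and 1.28 ± 0.199 FPKM in NTV. Gm13341, 95.9% identical to mt-Co2, averaged 1.44 ± 0.938 FPKM in TL, 2.85 ± 4.402 FPKM in TV and 1.90 ± 0.896 FPKM in NTV. None of these 3 was called by limma in any of the 3 comparisons, at an adjusted p of 0.254 or more. Between the alignments of mt-Co2 and mt-Atp6, the mitochondrial genome and the chromosome 1 copy both have 233 bases.

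Endothelial markers (Pecam1, Cdh5 and Kdr) summed to 28.3 to 39.4 FPKM in TL, 32.9 to 42.2 FPKM in TV and 48.9 to 67.2 FPKM in NTV, so the TL and TV libraries lay below all NTV libraries. Cdh5 and Kdr fell in TV against NTV, by 0.69 ± 0.16 and 1.39 ± 0.20 on the log2 scale (limma adjusted p = 0.0117 and 0.00139), but Pecam1 averaged 18.5 ± 3.59 FPKM in TV and 19.0 ± 3.88 FPKM in NTV (limma adjusted p = 0.885). Of the 3 tendon markers, which summed to 8.98 to 15.8 FPKM in TL, 7.16 to 17.2 FPKM in TV and 15.3 to 41.2 FPKM in NTV, 2 fell in TV against NTV. Tnmd averaged 0.711 ± 0.515 FPKM in TV and 9.74 ± 4.34 FPKM in NTV (log2 change -3.10, limma adjusted p = 0.00134), and Kera averaged 0.240 ± 0.197 FPKM in TV and 11.5 ± 6.16 FPKM in NTV (log2 change -3.92, limma adjusted p = 0.000898). Scx averaged 11.2 ± 3.67 FPKM in TV and 4.89 ± 1.78 FPKM in NTV and was not called (limma adjusted p = 0.0505). Erythroid marker sums overlapped between the groups. Macrophage marker sums overlapped between the groups, at 12.96 to 27.2 FPKM in TL, 14.8 to 38.2 FPKM in TV and 14.9 to 36.3 FPKM in NTV. The part of these cells in the mitochondrial differences was not tested.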
